A study of Mus musculus with 21 samples.

Results

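The genes examined here are those through which 5-fluorouracil (5-FU) is activated, acts and is broken down, together with enzymes that set the pools of deoxyuridine and thymidine nucleotides. They were taken as the rows of the count table with the symbols Umps, Upp1, Uck2, Tyms, Tk1, Dut, Rrm1, Rrm2 and Dpyd, which are 9 of the 21000 gene symbols listed. Of the 9, 8 had enough counts to be tested in each comparison, and Dpyd did not.

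The data are bulk RNA sequencing of mouse hematopoietic stem cells (HSCs), sorted as Lineage-negative cells that carry c-Kit, Sca-1 and CD150 and lack CD48, in 21 libraries from 7 groups with 3 libraries each. Wild-type mice, aged 10 weeks at the first administration, received PBS or 5-FU at 150 mg/kg intraperitoneally, either once or 3 times with 21 days between administrations. Mice of the longer schedule were therefore older at isolation, and between the schedules the number of administrations and age cannot be told apart. Day 6 is 5 days after the last administration, and day 21 is 20 days after it. The groups were PBS once at day 6, 5-FU once at day 6, 5-FU once at day 21, PBS 3 times at day 6, 5-FU 3 times at day 6, 5-FU 3 times at day 21, and untreated mice aged 2 years, called old. Both PBS groups were isolated at day 6, so that PBS-treated HSCs of day 21 were not compared. Libraries of the treated groups were made from 3000 to 3500 HSCs. In 5-FU-treated mice at day 6 the sorting gate was widened to c-Kit-dim cells and the Mac-1 antibody was left out, and at that time gate and treatment cannot be told apart. The gate was not widened at other times, so between day 6 and day 21 after 5-FU gate and time cannot be told apart either. In the count table a suffix of unstated meaning marks the 6 libraries of PBS once and 5-FU once at day 6, and their comparisons with other groups cannot be told apart from it.

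As background, 5-FU has to be turned into nucleotides inside a cell before it acts. Orotate phosphoribosyltransferase, one of the activities of the UMPS protein, converts it directly to the monophosphate, while uridine phosphorylase (Upp1) followed by a uridine kinase (Uck2) reaches the same product by way of the nucleoside. Ribonucleotide reductase, built from the large subunit Rrm1 and the small subunit Rrm2, makes the deoxynucleotide, and the deoxy-monophosphate then traps thymidylate synthase (Tyms), the enzyme that makes dTMP from dUMP, in a complex with its folate cofactor. Thymidine kinase 1 (Tk1) makes dTMP from salvaged thymidine, dUTPase (Dut) hydrolyses dUTP and thereby keeps uracil out of DNA, and dihydropyrimidine dehydrogenase (Dpyd) takes the first step of pyrimidine breakdown, which in the body runs mainly in the liver. Tyms, Tk1, Rrm2 and Dut are also known as genes whose transcripts are higher in S phase than in resting cells.

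The site at which the drug metabolite is bound is shown first, because it is what makes Tyms the target. The stretch below is 51 bases around the codon of the catalytic cysteine, residue 189 of 307, in coding exon 5 of 7 (GRCm38, chr5:30063359-30063409, minus strand), and the capitals mark that codon.
Tyms active site: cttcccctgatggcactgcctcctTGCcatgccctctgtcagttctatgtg

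Tyms lies on chr5:30058202-30073617 (minus strand), Umps on chr16:33954782-33967038 (minus strand) and Upp1 on chr11:9118103-9136170 (plus strand) in the same build. Uck2 lies on chr1:167222883-167285320 (minus strand), Tk1 on chr11:117815526-117826092 (minus strand) and Dut on chr2:125247190-125258608 (plus strand). Rrm1 lies on chr7:102441695-102469771 (plus strand), Rrm2 on chr12:24708241-24714146 (plus strand) and Dpyd on chr3:118562129-119432924 (plus strand). Processed pseudogenes close in sequence exist for Tyms (Tyms-ps, 93.9% identical over 935 aligned bases), Rrm2 (Gm48455) and Tk1 (Gm5742), and none of them has a row in the count table. Genes on the opposite strand share 6.11% of the exonic bases of Umps, 2.75% of those of Uck2 and 1.6% of those of Tk1, and whether the counting used strand is not stated.

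The 100 bases in front of the RefSeq start site are shown for the target Tyms and for the 5 members called higher in both day 6 comparisons. Dpyd is added for contrast, and all are on the gene's strand and from RefSeq on GRCm38.p6. The gene positions above are from GENCODE and can begin elsewhere. The Dut stretch lies within the GENCODE gene, and those of Tk1, Rrm2 and Dpyd lie partly within it. Capitals mark GC boxes (GGGCGG), boxes with the letters CCAAT and cores of E2F sites, each searched on both strands. The E2F core was written as TTCCCGC, with the forms spelled TTCGCGC, further as TTGCCGC and lastly as TTGGCGC.
Tyms, chr5:30073626-30073725: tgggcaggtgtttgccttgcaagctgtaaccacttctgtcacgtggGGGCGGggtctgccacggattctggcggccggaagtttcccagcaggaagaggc
Umps, chr16:33967039-33967138: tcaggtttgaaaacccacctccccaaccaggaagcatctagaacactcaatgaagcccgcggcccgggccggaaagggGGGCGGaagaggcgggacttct
Tk1, chr11:117826015-117826114: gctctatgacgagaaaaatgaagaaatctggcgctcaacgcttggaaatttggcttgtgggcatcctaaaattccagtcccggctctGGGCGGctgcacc
Dut, chr2:125247415-125247514: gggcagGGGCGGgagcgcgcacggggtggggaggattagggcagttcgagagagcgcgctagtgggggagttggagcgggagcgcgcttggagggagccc
Rrm1, chr7:102441595-102441694: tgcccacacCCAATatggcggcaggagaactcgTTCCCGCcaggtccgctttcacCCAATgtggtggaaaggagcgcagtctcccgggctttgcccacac
Rrm2, chr12:24708154-24708253: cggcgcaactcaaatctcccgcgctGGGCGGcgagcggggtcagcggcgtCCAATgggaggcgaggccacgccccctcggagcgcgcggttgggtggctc
Dpyd, chr3:118562080-118562179: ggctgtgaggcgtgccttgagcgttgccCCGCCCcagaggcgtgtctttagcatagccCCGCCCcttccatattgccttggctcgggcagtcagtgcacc

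All 9 members matched the RefSeq promoters, with 11 start sites in all, and the search used 250 bases before to 50 after each start. GC boxes lay in the windows of 8 of the 9 members, all but Rrm1, and in 61% of the promoters of tested genes. A CCAAT box was found for Rrm1, Rrm2 and Uck2, against 37.4% of all 32851 promoters. The E2F core lay in the windows of Rrm1 and Rrm2 and in 16.2% of the promoters of tested genes. With a T in front of the core, as in the longer form of the site, it was found in no member and in 2.26% of all promoters. These matches are descriptions of the letters in the window and were not tied to binding.

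The depth was 22184885 to 38649033 counts per library, with a median of 26962256. Levels are given as CPM, the counts of a gene relative to a library's total, scaled to a common size and normalized with trimmed-mean-of-M (TMM) factors over the 21 libraries. Each group's 3 libraries came from independent experiments. Fold changes come from edgeR's quasi-likelihood test on the libraries of the comparison, p-values were adjusted by the Benjamini-Hochberg method over all genes tested, and a gene was called at an adjusted p under 0.05. In bulk libraries, fewer cells of a kind and less RNA per cell cannot be told apart.

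At day 6 after a single administration of 5-FU, Umps, Uck2, Tk1, Dut, Rrm1 and Rrm2 rose and Upp1 fell. The count is 6 of 8 tested members higher, where 11.5% of the 12759 genes tested were higher, and 1 of 8 lower, where 10.6% of genes were lower. After 3 administrations the count was again 6 higher, against 9.84% of 12729 genes, and 1 lower, against 8.3%, with Tyms in place of Uck2 among the members called higher. The median log2 fold change of the 8 members was 0.50 after 1 and 0.52 after 3 administrations, beside medians of -0.00056 and -0.012 over all genes tested. When 1 library was left out, the share of all genes called higher was 6.14% to 8.13% after 1 and 5.18% to 6.6% after 3 administrations, and the share called lower 5.84% to 6.98% and 4.27% to 5.53%. None of the 8 members overlapped between 5-FU-treated and PBS-treated HSCs in either comparison, where 43.6% and 39.9% of all genes tested did not.

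**Figure D1:**
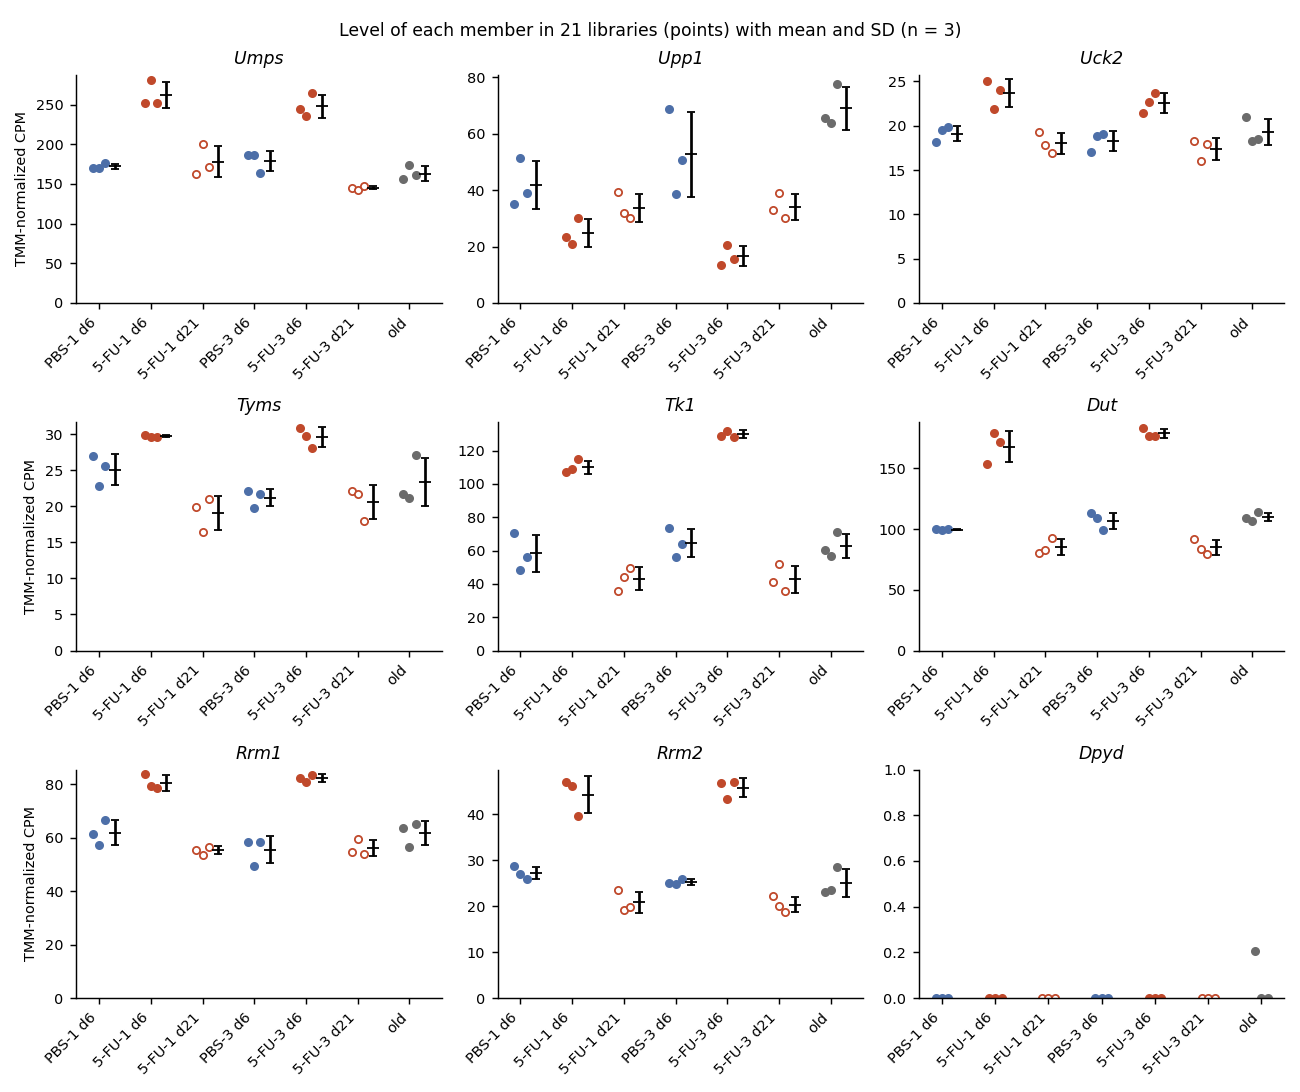
Level of each of the 9 members (TMM-normalized CPM, vertical axis from 0) in the 21 libraries, grouped on the horizontal axis, with the mean and SD of 3 libraries in black except for Dpyd; blue is PBS, filled red is 5-FU at day 6, open red is 5-FU at day 21 and grey is old. Tk1, Dut, Rrm1 and Rrm2 are highest in both 5-FU groups of day 6, Upp1 is lowest there, and Dpyd is at 0 in 20 of 21 libraries.

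Umps, which activates 5-FU in a single step and also completes the synthesis of UMP, was at 170, 170 and 176 CPM in HSCs given PBS once and at 252, 281 and 252 CPM in HSCs given 5-FU once. Every 5-FU library lay above every PBS library, and the difference was 0.62 ± 0.0678 on the log2 scale (SE, edgeR adjusted p = 0.00232). With 3 administrations Umps was at 186, 187 and 164 CPM after PBS and at 244, 236 and 264 CPM after 5-FU, a log2 difference of 0.47 ± 0.0827 (edgeR adjusted p = 0.0118).

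Upp1, the phosphorylase that opens the other route of activation, went the opposite way. It was at 35.2, 51.5 and 38.9 CPM after PBS once and at 23.2, 21.0 and 30.2 CPM after 5-FU once, and all 3 treated libraries were below all controls. The log2 fold change was -0.74 ± 0.182 (SE, edgeR adjusted p = 0.0275), but the call was lost in 4 of the 6 fits that left out 1 library, namely without 5-FU replicate 1 or 2 (adjusted p = 0.0884 and 0.0868) or PBS replicate 2 or 3 (adjusted p = 0.0702 and 0.0564). After 3 administrations Upp1 was at 68.6, 38.7 and 50.7 CPM with PBS and at 13.6, 20.4 and 15.5 CPM with 5-FU. That fall was larger than the spread between libraries, with a log2 fold change of -1.68 ± 0.237 (edgeR adjusted p = 0.00586), and Upp1 was 3.21-fold lower.

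Uck2, the kinase that phosphorylates uridine and its fluorinated analog, was at 18.2, 19.5 and 19.8 CPM after PBS once and at 25.1, 21.9 and 24 CPM after 5-FU once. The groups did not overlap, and the log2 fold change of 0.32 ± 0.0883 passed the threshold narrowly (edgeR adjusted p = 0.0412). Leaving out any 1 of the 6 libraries ended the call, with adjusted p between 0.0549 and 0.111. With 3 administrations Uck2 was at 17.0, 18.8 and 19.1 CPM after PBS and at 21.4, 22.7 and 23.7 CPM after 5-FU, and the difference of 0.30 did not pass (edgeR adjusted p = 0.0624, 95% interval 0.087 to 0.52).

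Tyms, the target, showed the smallest log2 difference of the 8 tested members after 1 administration. It was at 27.0, 22.8 and 25.6 CPM after PBS and at 29.9, 29.7 and 29.7 CPM after 5-FU. The groups did not overlap, yet the log2 difference of 0.26 ± 0.0881 did not pass the threshold (edgeR adjusted p = 0.0755, 95% interval 0.051 to 0.46). With 3 administrations it was at 22.1, 19.8 and 21.7 CPM after PBS and at 30.9, 29.8 and 28.1 CPM after 5-FU, and the rise of 0.48 ± 0.0859 passed (edgeR adjusted p = 0.0122). The levels after 5-FU were close in both schedules, at means of 29.8 and 29.6 CPM, while the means of the PBS groups were 25.1 and 21.2 CPM. The difference between the schedules' effects on Tyms was 0.23 on the log2 scale and did not pass (edgeR adjusted p = 0.374).

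Tk1, which makes dTMP by salvage and so bypasses Tyms, had the largest rise of the 8 tested members in both comparisons. It was at 70.4, 48.1 and 56.3 CPM after PBS once and at 107, 109 and 115 CPM after 5-FU once. The lowest treated library thus lay well above the highest control, and the rise was 1.91-fold (log2 fold change 0.93 ± 0.137, edgeR adjusted p = 0.00514). With 3 administrations Tk1 was at 73.3, 56.2 and 64.1 CPM after PBS and at 129, 132 and 128 CPM after 5-FU, a log2 fold change of 1.00 ± 0.108 (edgeR adjusted p = 0.00283).

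Salvage and synthesis of dTMP were also set side by side within each library, as the ratio of Tk1 to Tyms in CPM per kilobase of transcript, a measure on which the library's scaling cancels. The ratio was 5.72, 4.63 and 4.84 after PBS once and 7.85, 8.07 and 8.48 after 5-FU once. It was 7.29, 6.23 and 6.5 after PBS 3 times and 9.21, 9.73 and 9.97 after 5-FU 3 times. The treated and control libraries did not overlap in either schedule, with ratios 1.61-fold and 1.45-fold higher after 5-FU. The two-sided exact permutation test gave p = 0.1 for each, the smallest value it can give with 3 libraries against 3 (adjusted p = 0.1 over 4 such comparisons). The ratio was chosen after the levels of both genes were seen. Its rise follows from the larger rise of Tk1 than of Tyms and is no separate support. At day 21 the ratio was between 3.95 and 5.86 in all 6 libraries.

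Dut, which removes dUTP, was at 99.8, 99.3 and 100 CPM after PBS once and at 154, 179 and 172 CPM after 5-FU once. It was at 113, 109 and 99.5 CPM after PBS 3 times and at 183, 177 and 177 CPM after 5-FU 3 times. The rises of 1.70-fold and 1.67-fold were larger than the spread between libraries (log2 fold changes 0.77 ± 0.0761 and 0.74 ± 0.0758, edgeR adjusted p = 0.00171 and 0.00265).

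The subunits of ribonucleotide reductase both rose. Rrm1 was at 61.4, 57.3 and 66.8 CPM after PBS once and at 83.8, 79.2 and 78.5 CPM after 5-FU once, and at 58.5, 49.6 and 58.4 CPM after PBS 3 times and 82.3, 80.7 and 83.6 CPM after 5-FU 3 times. Its log2 fold changes were 0.39 ± 0.0813 and 0.56 ± 0.0914 (edgeR adjusted p = 0.0164 and 0.0089). Rrm2, whose protein is the subunit that varies with the cell cycle, was at 28.7, 27.0 and 25.9 CPM after PBS once and at 47.0, 46.1 and 39.6 CPM after 5-FU once, and at 25.0, 24.8 and 25.9 CPM after PBS 3 times and 46.8, 43.4 and 47.1 CPM after 5-FU 3 times. No treated library reached down to the controls for either subunit, and the log2 fold changes of Rrm2 were 0.71 ± 0.0924 and 0.85 ± 0.0768 (edgeR adjusted p = 0.00363 and 0.00219). The ratio of Rrm2 to Rrm1 per kilobase of transcript was 0.805 ± 0.0854 after PBS once and 1.00 ± 0.0726 after 5-FU once (SD, n = 3), and 0.832 ± 0.0687 and 1.01 ± 0.0301 with 3 administrations. These ratios did not overlap between treated and control libraries (exact permutation p = 0.1 in each schedule, the smallest possible, and adjusted p = 0.1). They too were chosen after the levels were seen, and their rise follows from the larger rise of Rrm2 than of Rrm1.

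Dpyd, the enzyme of breakdown, had no count in 20 of the 21 libraries. A library at 0 allows a level of up to 3 counts, which is 0.0776 to 0.135 CPM at these depths and covers counting error only. The exception was old replicate 1, with 5 counts or 0.206 CPM. The next enzymes of this route were likewise near the floor, with 20 counts of Dpys and 9 counts of Upb1 in all libraries together. Dpys had counts in 5 of the 21 libraries, at most 8 counts or 0.258 CPM, and Upb1 in 2, at most 8 counts or 0.344 CPM. Dpyd was thus not detectable at this depth in 20 libraries, and no comparison was made for these genes.

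**Figure D2:**
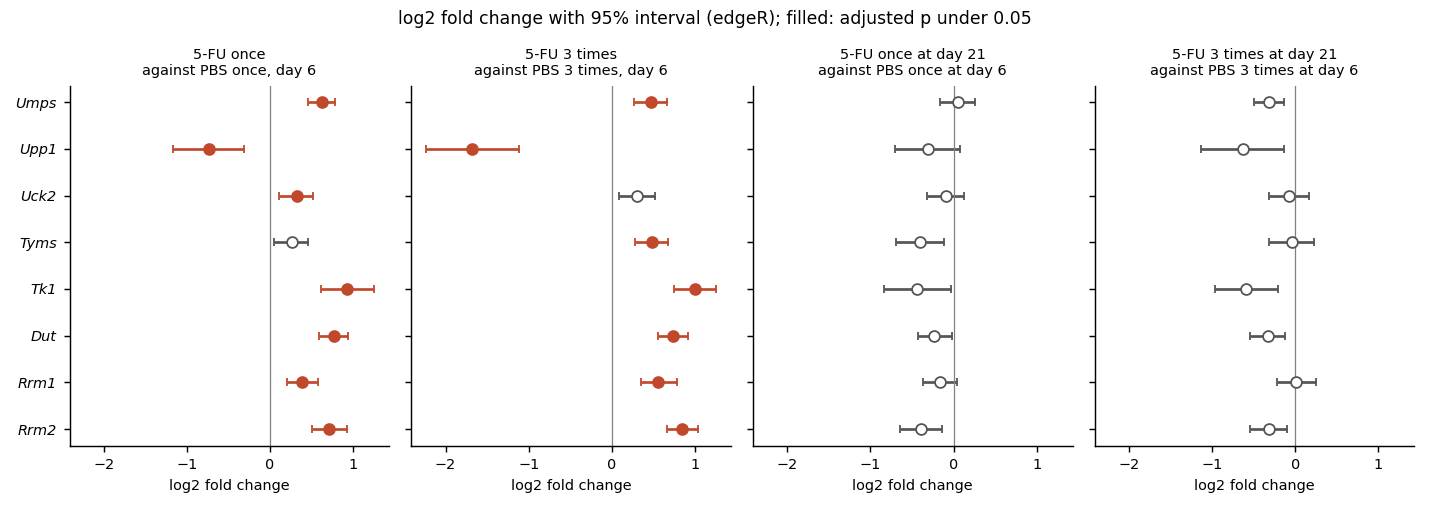
The log2 fold change of each tested member (horizontal axis) with its 95% interval from edgeR, in 5-FU against PBS at day 6 (left, 1 and 3 administrations) and in 5-FU at day 21 against PBS at day 6 (right), each from 3 against 3 libraries; filled points had an adjusted p under 0.05. At day 6 all members but Upp1 lie to the right of 0, and at day 21 no member is filled.

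The effect of 5-FU was then compared between the schedules with an interaction term over 12 libraries. No member was called, where 0.65% of 13227 genes were (86 genes), and 1 of the 8 members, Upp1, had an unadjusted p under 0.05, as did 14.8% of all genes. Its difference of -0.92 ± 0.327 on the log2 scale had an edgeR adjusted p of 0.206 and a 95% interval from -1.64 to -0.21. For Uck2, Dut and Tk1 the 95% intervals of the difference ran from -0.26 to 0.25, from -0.23 to 0.20 and from -0.32 to 0.48. PBS-treated HSCs of the 2 schedules were compared directly as well. No member was called between them, where 0.0156% of 12806 genes were (2 genes), and Tyms was the 1 member with an unadjusted p under 0.05, where 12.8% of all genes were, at a log2 difference of -0.24 for 3 administrations against 1 (edgeR adjusted p = 0.369).

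By day 21 the members that had risen were back down, in a comparison where time and the sorting gate cannot be told apart. After 1 administration 7 of 8 members were lower at day 21 than at day 6, where 13.7% of 12589 genes were lower, and no member was higher, where 12.3% of genes were. After 3 administrations 7 of 8 were lower, against 10.8% of 12553 genes, and Upp1 was higher, against 8.68%. Tk1 fell most, by 1.37 and 1.61 on the log2 scale (edgeR adjusted p = 0.00125 and 0.00109), to 35.8, 44.0 and 49.7 CPM after 1 administration and to 40.9, 51.8 and 35.9 CPM after 3. All 6 libraries lay below the means of both PBS groups, but those at 49.7 and 51.8 CPM were above PBS once replicate 2, at 48.1 CPM.

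Rrm2 fell by 1.10 and 1.18 on the log2 scale (edgeR adjusted p = 0.00152 and 0.000871), to 23.4, 19.2 and 19.7 CPM and to 22.1, 20.0 and 18.7 CPM. Dut fell by 0.99 and 1.08 (edgeR adjusted p = 0.00131 and 0.000826), to 80.0, 82.9 and 93.1 CPM and to 91.8, 83.9 and 79.5 CPM. Rrm1 fell by 0.56 in both schedules (edgeR adjusted p = 0.00356 and 0.00513), to between 53.7 and 59.6 CPM. For each of these genes of the nucleotide pools, every library of day 21 was below every 5-FU library of day 6. The share of all genes with such a separation was not determined for day 21 against day 6.

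Umps, Tyms and Uck2 were lower at day 21 as well. Umps fell by 0.57 and 0.79 (edgeR adjusted p = 0.00749 and 0.00129), to 163, 200 and 171 CPM after 1 administration and to 145, 143 and 147 CPM after 3. Tyms fell by 0.66 and 0.53 (edgeR adjusted p = 0.00696 and 0.0171), to 19.9, 16.5 and 21.0 CPM and to 22.2, 21.7 and 18.0 CPM, and the second call was lost without 5-FU replicate 1 of day 6 (adjusted p = 0.0557). Uck2 fell by 0.41 and 0.39 (edgeR adjusted p = 0.0224 and 0.0312), to between 16.0 and 19.3 CPM. Its calls were the least secure of the members: after 3 administrations each of the 6 fits without 1 library lost it (adjusted p 0.0517 to 0.0945), and after 1 administration it was lost without day 21 replicate 2 or 3 (adjusted p = 0.0623 and 0.0716) or day 6 replicate 1 or 3 (adjusted p = 0.0761 and 0.0715).

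Upp1 again moved the other way. After 3 administrations it was at 32.8, 39.1 and 30.2 CPM on day 21, all above the libraries of day 6, and the log2 fold change was 1.04 ± 0.172 (edgeR adjusted p = 0.00797). After 1 administration it was at 39.3, 31.9 and 30.1 CPM on day 21. The lowest of these just overlapped the highest library of day 6, and the difference of 0.43 ± 0.164 did not pass (edgeR adjusted p = 0.0938), except without day 6 replicate 3 (log2 fold change 0.60, adjusted p = 0.0478).

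Against PBS-treated HSCs, no member was called at day 21 after 1 administration (edgeR), where 0.221% of 12647 genes were, nor after 3 administrations, where 0.0475% of 12632 genes were. At an unadjusted p under 0.05 there were 4 members after 1 and 5 after 3 administrations, where 13.3% and 13.7% of all genes were. Most point estimates were below 0, in 7 of 8 members in each schedule, with member medians of -0.27 and -0.32 beside -0.013 and 0.00079 over all genes tested. After 3 administrations Tk1 had a log2 fold change of -0.59 (edgeR adjusted p = 0.21, 95% interval -0.97 to -0.21), Dut of -0.33 (-0.55 to -0.12), Rrm2 of -0.32 (-0.54 to -0.096) and Umps of -0.31 (-0.50 to -0.13), and none of these 4 genes overlapped with PBS, where 21.4% of all genes did not. DESeq2 called Umps, Tk1 and Dut in this comparison (adjusted p = 0.00573, 0.026 and 0.0198), where it called 592 of 12632 genes. The fit of all 21 libraries called Dut (adjusted p = 0.0428), where it called 185 of 13571 genes. After 3 administrations Rrm1 and Tyms differed by 0.014 and -0.043, with 95% intervals of -0.22 to 0.25 and -0.31 to 0.23. After 1 administration Tyms had a log2 fold change of -0.40 (edgeR adjusted p = 0.241, 95% interval -0.69 to -0.11). Tk1 had -0.44 (-0.84 to -0.031), Rrm2 -0.39 (-0.65 to -0.14) and Dut -0.23 (-0.43 to -0.023). The intervals of Umps (0.05), Upp1, Uck2 and Rrm1 included 0. Tyms, Dut, Rrm1 and Rrm2 did not overlap with PBS once, and the share of all genes for this was not determined.

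The schedules were also compared directly at day 21. No member was called between 3 administrations and 1 by edgeR, where 0.00802% of 12474 genes were (1 gene). Umps was the 1 member with an unadjusted p under 0.05 (5.92% of all genes) and the 1 member without overlap (12.5% of all genes), at a log2 difference of -0.30 ± 0.0979 (edgeR adjusted p = 0.692). For the other 7 the estimates lay between -0.044 and 0.11.

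In old HSCs Upp1 had the highest mean of the 7 groups, and the other tested members overlapped with PBS 3 times. Upp1 was at 65.4, 63.9 and 77.7 CPM in old HSCs, overlapping with PBS 3 times, and the log2 difference from that group was 0.39 (edgeR adjusted p = 0.544, 95% interval -0.075 to 0.85). Every old library was above every library of PBS once (35.2 to 51.5 CPM), and the share of all genes with such a separation was not determined. With that group as control the log2 difference was 0.73 ± 0.157 or 1.66-fold. It did not pass either (edgeR adjusted p = 0.0692), where 242 of 12855 genes were called. Against PBS 3 times, no member was called by edgeR and none had an unadjusted p under 0.05, where 0.996% of 12847 genes were called and 11.2% had such a p. Tyms was at 21.7, 21.2 and 27.2 CPM, Tk1 at 60.4, 56.9 and 71.0 CPM, and Dut at 109, 107 and 114 CPM. These overlapped with the libraries of PBS 3 times, and the 95% intervals of their differences from that group were -0.16 to 0.43, -0.35 to 0.27 and -0.16 to 0.24.

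When the 7 groups were put in order of their mean, both 5-FU groups of day 6 came first and second for every member but Upp1 and Dpyd, and last and second last for Upp1. The step from these groups to the next had no overlap for Umps, Uck2, Tyms, Tk1, Dut, Rrm1 and Rrm2. Separation of 3 against 3 libraries was common, at 43.6% and 39.9% of all genes in 5-FU against PBS at day 6. For most other pairs of neighbouring groups this share was not determined. Between the 2 groups of 5-FU at day 6 the libraries overlapped for 6 of the 7, and for Tk1 all libraries of 5-FU 3 times were above those of 5-FU once. Further down, neighbouring groups mostly overlapped. The exceptions were old above 5-FU 3 times at day 21 for Umps, PBS once above 5-FU once at day 21 for Dut, PBS once above PBS 3 times for Rrm2, and 5-FU once above 5-FU 3 times at day 6 for Upp1.

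Levels of different members can be compared only per length. Per kilobase of the longest transcript, HSCs given PBS once had 51.1 ± 0.197 CPM of Dut, 49.4 ± 1.00 of Umps, 40.5 ± 7.82 of Tk1 and 32.8 ± 6.69 of Upp1 (SD, n = 3). Rrm1 with 15.5 ± 1.19, Rrm2 with 12.4 ± 0.64, Tyms with 7.94 ± 0.677 and Uck2 with 4.05 ± 0.178 followed. The target thus stood below all tested members but Uck2. After 5-FU once, Tk1 reached 76.6 ± 2.77 and Upp1 dropped to 19.4 ± 3.76 CPM per kilobase, which put Upp1 behind Rrm2 and Rrm1. Per kilobase of coding length, Dut, Umps, Tk1 and Upp1 kept their order after PBS once, and Tyms, at 27.3 ± 2.33, came next.

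The other genes of the pathway, 47 in number, were examined by function. At day 6, 17 of 43 tested were higher and 3 lower after 1 administration, and 13 of 44 were higher and 1 lower after 3. The shares over all genes tested, against which these and the counts by function stand, were 11.5% higher and 10.6% lower after 1 administration and 9.84% and 8.3% after 3. The median log2 fold changes of these pathway genes were 0.24 and 0.14. At day 21 against PBS none was called by edgeR in either schedule.

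The folate cycle, which supplies the methylene group that Tyms transfers, had 6 of 9 genes higher after 1 administration and 5 of 9 after 3, with none lower. Mthfd2, a mitochondrial folate enzyme, rose by 1.10 and 1.49 on the log2 scale (edgeR adjusted p = 0.00375 and 0.00785), from 6.99 ± 0.725 to 14.9 ± 1.93 CPM with 1 administration (SD, n = 3). Shmt1, Shmt2, Mthfd1l and the folate carrier Slc19a1 were the other members of this list called in both comparisons, with log2 fold changes from 0.28 to 0.82.

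Of the enzymes of de novo pyrimidine synthesis, 2 of 4 rose in each schedule. Cad, which carries the first steps, rose by 0.79 and 1.15 (edgeR adjusted p = 0.00429 and 0.00545), and Ctps, the CTP synthase, by 0.51 and 0.91 (edgeR adjusted p = 0.0197 and 0.00541). Umps, the last enzyme of UMP synthesis, thus moved in the same direction as Cad in these libraries. Among activation and salvage genes, 4 of 13 were higher after 1 administration, and 4 of 14 were higher and 1 lower, Tk2, after 3. Called in both were the nucleoside diphosphate kinases Nme1 (0.95 and 0.74) and Nme2 (0.75 and 0.48) and the thymidylate kinase Dtymk (0.38 and 0.39, edgeR adjusted p = 0.0165 and 0.0188), which phosphorylates the dTMP that Tyms and Tk1 make.

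Of the 4 glycosylases that can excise uracil from DNA, Ung and Tdg rose in both comparisons, Ung by 0.73 and 0.93 (edgeR adjusted p = 0.0325 and 0.0101) and Tdg by 0.65 and 0.66 (edgeR adjusted p = 0.00246 and 0.00324). The nucleotide pool genes gave 2 higher and 2 lower of 8 after 1 administration and none of 8 after 3. Rrm2b, the p53-regulated small subunit of ribonucleotide reductase, fell by 0.71 after 1 administration (edgeR adjusted p = 0.0268), while Rrm2 rose. Transporters gave 1 higher, the nucleoside transporter Slc29a1, and 1 lower, Abcc5, of 5 after 1 administration and none after 3. Upp2, a second uridine phosphorylase, had 6 counts in all 21 libraries together.

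**Figure D3:**
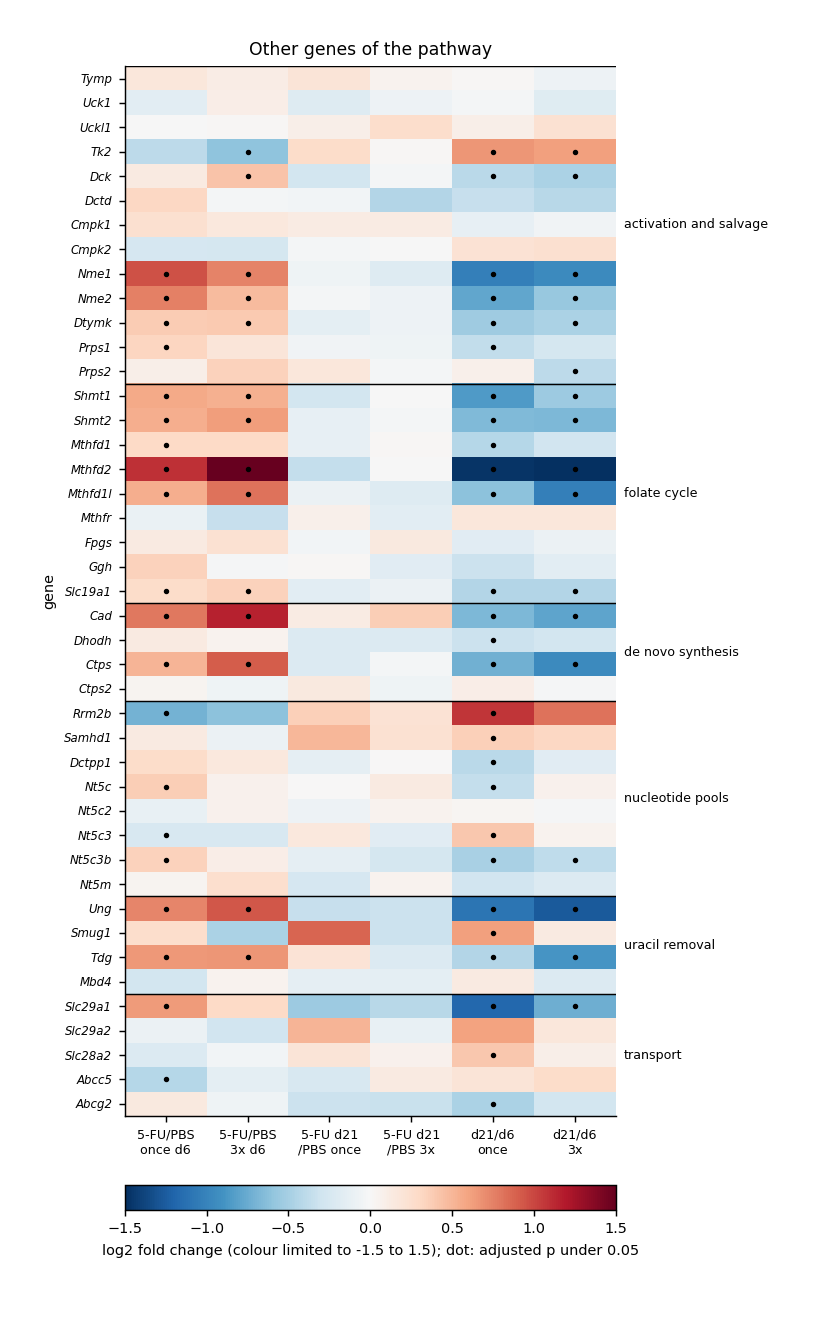
The log2 fold change (colour, limited to -1.5 to 1.5) of the 43 other genes of the pathway that were tested in all 6 comparisons shown, ordered by function; a dot marks an adjusted p under 0.05 (edgeR). Shmt1, Shmt2, Mthfd2, Mthfd1l, Cad, Ctps, Nme1, Nme2, Ung and Tdg are red in both columns of 5-FU against PBS at day 6 and blue in the columns of day 21 against day 6, and the columns of 5-FU at day 21 against PBS hold no dot.

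Genes of DNA replication and cycling were examined beside the members. Of 11 such reference genes, 7 were higher at day 6 after 1 administration (median log2 fold change 0.36) and 10 after 3 (median 0.69), with none lower, where 11.5% and 9.84% of all genes were higher. At day 21 against day 6, 11 and 10 of the 11 were lower. Mcm5, a subunit of the replicative helicase, rose by 0.72 and 0.98 (edgeR adjusted p = 0.00346 and 0.00277). The part of cycling in the members' rise was not tested.

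Markers of the sorted cells and of other blood cells also moved at day 6. The summed level of 8 HSC markers was 3901 to 4299 CPM after PBS once and 3088 to 3237 CPM after 5-FU once, and 3732 to 4096 and 2701 to 2787 CPM with 3 administrations, with none of the 8 at 0. The single markers went both ways, with 3 called higher and 2 lower after 1 administration (median log2 fold change 0.30) and 1 higher and 4 lower after 3 (median -0.44). Myeloid markers, 13 in all, summed to 103 to 156 CPM after PBS once and 60.6 to 75.3 CPM after 5-FU once, and to 94.9 to 128 and 53.9 to 78.5 CPM with 3 administrations, with 6 and 2 of them called lower and none higher. Erythroid markers (7 genes) summed to 1385 to 1424 and 1042 to 1102 CPM with 1 administration, and megakaryocyte markers (6 genes) to 166 to 203 and 107 to 112 CPM. Lymphoid markers (7 genes) summed to at most 9.42 CPM in any library, with Cd3e at 0 in all groups but 5-FU once at day 21. With 3 administrations the erythroid sums were 1280 to 1525 and 1041 to 1102 CPM and the megakaryocyte sums 177 to 186 and 150 to 159 CPM. Of 5 erythroid markers tested, 2 were called lower after 1 administration, and 2 lower and 1 higher after 3. Of 6 megakaryocyte markers, 4 and 2 were called lower (medians -0.96 and -0.20) and none higher. Over all genes tested, 11.5% were higher and 10.6% lower after 1 administration, and 9.84% and 8.3% after 3. The HSC, myeloid, erythroid and megakaryocyte sums were thus lower in every 5-FU library of day 6 than in every PBS library of the same schedule, and their part in the members' changes was not tested.

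Across the 21 libraries Pearson's r of log2 CPM was from 0.856 to 0.964 in the 10 pairs of Tyms, Tk1, Dut, Rrm1 and Rrm2. In the pairs of Umps or Uck2 without Upp1 it was from 0.672 (Tyms with Umps) to 0.892 (Umps with Dut). Upp1 had r from -0.685 to -0.459 with the other 7 members. These values describe libraries of 7 groups, of which the 5-FU groups of day 6 stand apart, and they are no measure of 21 independent points. After subtraction of each group's mean, r in the 10 pairs ranged from -0.0204 to 0.619, and those of Tyms with Tk1 and Rrm2 were 0.619 and 0.604. In the pairs of Umps or Uck2 without Upp1 it ranged from -0.623 (Uck2 with Tk1) to 0.228 (Umps with Dut). In the 7 pairs of Upp1 it then ranged from -0.322 to 0.253, of both signs.

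**Figure D4:**
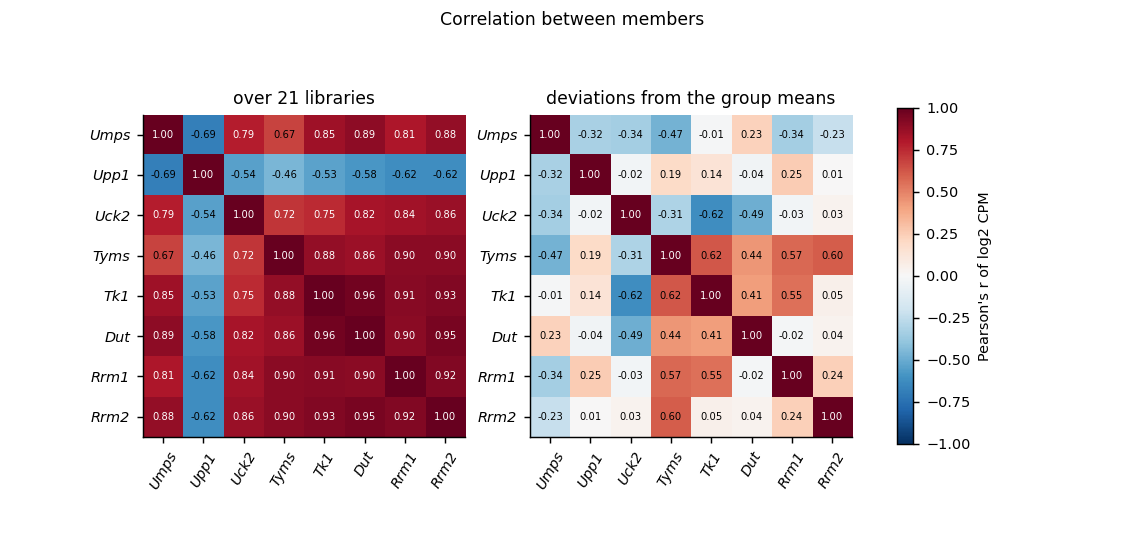
Pearson's r of log2 CPM between the 8 tested members over 21 libraries (left) and after subtraction of the group means (right), with colour from -1 to 1. On the left Upp1 is negative with all other members and the remaining pairs are positive, and on the right the values are smaller in size and of both signs.

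Among 10898 other genes with a mean of at least 100 counts, those most like each member over the 21 libraries were found by the same measure. For Tyms they were Gmnn (r = 0.945), Bola3 (0.908) and Pclaf (0.908), and for Rrm2 they were Pclaf (0.968), Cdca8 (0.966) and Tipin (0.961). Gmnn encodes geminin, an inhibitor of replication licensing, and Pclaf a partner of the sliding clamp PCNA. For Tk1 they were Spc24 (0.977), Nap1l1 (0.968) and Gatm (0.964), for Dut Nutf2 (0.985), Spc24 (0.974) and Atp5g3 (0.973), and for Rrm1 Dtymk (0.956), Prdx4 (0.948) and Gins1 (0.945). For Umps they were Hmga1 (0.951), Hmga1b (0.948) and Usp1 (0.941), where Hmga1b is by its name a copy of Hmga1 and may share its reads, and for Uck2 Psmd1 (0.917), Tcp1 (0.902) and Pfdn1 (0.892). Upp1 was most like Sult1a1 (0.942), Gm42517 (0.925) and Coq8a (0.913). Pclaf was shared by Tyms and Rrm2, and Spc24 by Tk1 and Dut. The nearest genes of Umps, Uck2, Rrm1 and Upp1 were not shared with another member.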

How the data were processed

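The data were 21 RNA sequencing libraries of mouse HSCs. The authors aligned reads with TopHat 2.0.13 to mm10 with iGenomes annotation and used Cuffdiff of Cufflinks 2.2.1. They deposited whole-number counts per gene symbol without normalization, and how these were made is not stated. The members and gene lists were chosen with earlier results of these data known. One gene of the folate list is not reported here and was left out of the counts. Members were named in every comparison, other pathway genes where both day 6 comparisons called them, and the 3 most similar genes by Pearson's r (prior count 2). Singled-out genes outside this rule (Tk2, Rrm2b, Slc29a1, Abcc5, Mcm5, Dpys, Upb1, Upp2) and the ratios were chosen after their values were seen.

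In R 4.3.3, each comparison was fitted on its own libraries with edgeR 4.0.16 (filterByExpr, TMM, quasi-likelihood test, Benjamini-Hochberg adjustment, threshold 0.05). The steps were tested on simulated data, where the planted changes were larger than most changes of the members. The detection of smaller changes was not tested. Alternatives were RLE factors, library totals, DESeq2 1.42.0, other filters, a replicate block, a single fit, other PBS controls and leaving out each library. Replicate pairs differed by 16.5 to 36.9 times sampling variance, so none was a copy. Positions and lengths come from GENCODE on GRCm38, promoters from RefSeq.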

Additional observations from a re-analysis of the deposited data

How the results depend on the processing

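The count of members called was recomputed in 138 alternative fits and stayed within 1.5 times the main count in 136 of them. The exceptions were both in 5-FU 3 times at day 21 against PBS, where DESeq2 called 3 members and the fit of all 21 libraries 1. Over all genes these fits called 592 of 12632 and 185 of 13571. For day 21 against PBS, the schedules, old HSCs and the PBS groups the main count was 0, so this limit there meant staying at 0. The limit also passed losses. At day 6 after 1 administration, leaving out 1 library gave 5 or 6 members called, where the main fit called 6 higher and 1 lower. Replicate numbers did not pair the libraries (r of deviations from -0.0526 to 0.0955), and with a replicate block 5 members were called after 1 administration at day 6, without Upp1 (adjusted p = 0.0547) and Uck2 (adjusted p = 0.0891), and Uck2 was lost at day 21 against day 6 after 3 administrations (adjusted p = 0.0598). Uck2 was further lost with library totals in the same comparisons (adjusted p = 0.102 and 0.0938) and without a filter at day 6 after 1 administration (adjusted p = 0.0518), and it was called at day 6 after 3 administrations by DESeq2 (adjusted p = 0.0423) and the single fit (adjusted p = 0.014).

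Of 1104 recomputed log2 fold changes of members 46 changed sign, none of a member called in the main fit, and all lay near 0. Umps at day 21 after 1 administration went to -0.021 with library totals and -0.011 with PBS 3 times as control, and from -0.038 to 0.11 when 1 library was left out. In 3 administrations against 1 at day 21, library totals gave 0.038 for Tk1, 0.04 for Dut and 0.0065 for Rrm2, and Dut was 0.0025 without a filter and 0.0027 in the single fit. Leaving out 1 library there gave ranges of -0.095 to 0.14 for Upp1, -0.084 to 0.013 for Uck2, -0.17 to 0.12 for Tk1, -0.061 to 0.073 for Dut, -0.018 to 0.054 for Rrm1 and -0.10 to 0.06 for Rrm2. In 5-FU 3 times at day 21 against PBS the ranges were -0.095 to 0.051 for Tyms and -0.06 to 0.058 for Rrm1. In old HSCs, PBS once as control moved Upp1 from 0.39 to 0.73 (adjusted p = 0.0692) and gave -0.095 for Tyms and 0.12 for Tk1, and a minimum of 10 counts gave 0.0016 for Rrm2, with ranges of -0.13 to 0.056 for Tk1, -0.0015 to 0.072 for Dut and -0.11 to 0.05 for Rrm2. For the difference between schedules the ranges were -0.072 to 0.041 for Uck2, -0.076 to 0.21 for Tk1 and -0.076 to 0.03 for Dut. The cause was not tested.

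Library totals moved the median of all genes to -0.11 at day 6 and 0.12 at day 21 against day 6 after 3 administrations, and the share of higher genes among those called from 54.2% to 35.6% and from 44.4% to 63.5%, and at day 6 after 1 administration from 52% to 41%. For the difference between schedules this share went from 52.3% to 35.1%, and at day 21 against PBS, with few calls, from 32.1% to 20.5% and from 83.3% to 40%. Over all genes, the fit of all 21 libraries called 257 and 185 genes at day 21 against PBS, 16 between the schedules at day 21 and 19 between the PBS groups, and DESeq2 called 725 and 592 genes at day 21 against PBS, 161 between the schedules at day 21, 569 in old HSCs, 547 between the PBS groups and 715 for the difference between schedules, where edgeR called 28, 6, 1, 128, 2 and 86, and the replicate block gave 1509 instead of 2310 at day 6 after 3 administrations. At these depths a library at 0 allows a level of up to 0.0776 to 0.135 CPM, which bears on Dpyd, Dpys, Upb1 and Upp2.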
